A study of Mus musculus with 6 samples.

Results

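Fgf21, Gdf15, Stc1 and Stc2 encode secreted proteins that are known to be made by cells under mitochondrial or other metabolic stress, and all 4 have a row among the 23420 genes of the deposited table, found there by symbol. Polyadenylated RNA of the PBS-flushed humerus of 6-day-old C57BL/6 mice was sequenced in 3 control libraries and 3 libraries with a conditional knockout of Tfam (Tfam cKO). Tfam encodes mitochondrial transcription factor A, a protein that coats mitochondrial DNA and starts its transcription, and per the series title it was deleted in limb mesenchyme expressing Prx1-Cre. That driver acts in the precursors of the limb's bone and connective tissue, so blood cells, vessels and muscle fibres in the bone keep the gene, and the labels give no further genotype for the controls. They do not say whether libraries came from separate animals, so p-values measure the spread between these libraries.

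FGF21 is a circulating hormone of the fibroblast growth factor family that signals through an FGF receptor joined to the co-receptor beta-Klotho. GDF15 is a distant member of the TGF-beta superfamily whose receptor, GFRAL with RET, sits on hindbrain neurons and lowers food intake. Both are called mitokines because stressed mitochondria in one tissue raise them and other tissues respond, and both are known targets of the transcription factor ATF4 in the integrated stress response. The stanniocalcins STC1 and STC2 are related glycoproteins that bind and inhibit the pappalysin proteases, which free insulin-like growth factors from their binding proteins, and Stc2 is also a known ATF4 target.

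The log2 fold change was positive for Fgf21, Gdf15 and Stc2 and negative for Stc1, and differences between the members were not tested. Stc2 rose 4.31-fold in the Tfam cKO humerus, and it alone passed the test across all genes (limma on log2 of the normalized read count plus 1, Benjamini-Hochberg adjusted p under 0.05). Gdf15 was near the threshold on 27 reads in all, Fgf21 had 6 reads in the whole experiment, and the values of Stc1 lay lower in the knockout without passing. The 1 of 4 members called stands against a background of 12.4% of the 14438 tested genes called in either direction, with 6.42% called higher and 6.01% lower. Libraries held 1441152 to 1714770 reads assigned to genes, and Tfam itself fell from 70.7 ± 8.75 to 40.6 ± 10.8 normalized reads (SD, n = 3 each; limma adjusted p = 0.0246, but 0.0503, 0.0704 and 0.107 without Control replicate 1, 2 or 3, 0.0748 without Tfam cKO replicate 1 and 0.0564 with DESeq2).

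The start regions of these genes are shown because ATF4 is known to act through short elements near gene starts, and 3 of the 4 members had an entry in the RefSeq promoter table (GRCm38.p6, 250 bases before to 50 after each start). Capitals mark matches, on either strand, to TGATGNAA, the core of the C/EBP-ATF response element, to TGACGTCA, the cAMP response element, or to CACGTG, the E-box. The sequences run 5′ to 3′ on the gene's own strand, which is the minus strand for all 3, at chr7:45615441-45615740, chr8:70632046-70632345 and chr11:31370012-31370311.
Fgf21: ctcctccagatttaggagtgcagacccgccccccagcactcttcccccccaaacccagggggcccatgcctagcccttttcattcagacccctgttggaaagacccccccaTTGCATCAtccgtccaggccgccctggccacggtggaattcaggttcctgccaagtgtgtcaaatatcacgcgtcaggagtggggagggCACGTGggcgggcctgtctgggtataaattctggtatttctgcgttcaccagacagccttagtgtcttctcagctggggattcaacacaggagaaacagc
Gdf15: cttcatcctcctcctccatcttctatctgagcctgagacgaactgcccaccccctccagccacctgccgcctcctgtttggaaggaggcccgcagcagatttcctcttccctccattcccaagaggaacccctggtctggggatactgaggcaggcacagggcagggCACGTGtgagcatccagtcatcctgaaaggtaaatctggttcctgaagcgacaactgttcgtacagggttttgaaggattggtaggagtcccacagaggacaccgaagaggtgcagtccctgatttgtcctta
Stc2: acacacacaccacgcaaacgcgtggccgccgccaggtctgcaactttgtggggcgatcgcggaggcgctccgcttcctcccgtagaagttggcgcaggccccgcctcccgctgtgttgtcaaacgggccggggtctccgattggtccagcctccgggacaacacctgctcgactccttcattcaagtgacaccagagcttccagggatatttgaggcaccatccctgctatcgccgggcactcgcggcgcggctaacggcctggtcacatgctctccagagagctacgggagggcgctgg
The Fgf21 window holds TGATGNAA on the other strand, as TTGCATCA, starting 139 bases before the gene start, and an E-box starting 50 bases before it. The Gdf15 window holds an E-box starting 83 bases before that start, and the window of a start farther upstream (chr8:70632407-70632706) holds none of the 3 motifs. The Stc2 window, of the member that passed the test, holds none of them either. Over all 32851 windows of this length, 3.97% hold TGATGNAA, 1.79% hold TGACGTCA and 7.15% hold CACGTG. A match describes letters only, and a window without one says nothing about elements elsewhere in the gene. For Stc1, no sequence is shown.

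Stc2 lies on chromosome 11 at 31359441 to 31370061, minus strand, with 4 exon blocks of 1793 bases in all (mm10, as deposited). Its normalized reads were 8.04, 10.3 and 5.97 in control replicates 1 to 3 and 31.4, 32.0 and 41.3 in the Tfam cKO replicates. Every knockout library was therefore above every control library, as for 16.6% of all tested genes, with a wide gap between the groups. The means were 8.10 ± 2.17 and 34.9 ± 5.53 (SD, n = 3 each), from 25 and 102 reads. The log2 fold change was 1.996 ± 0.288 (SE; 95% interval 1.37 to 2.62), with a limma adjusted p of 9.37e-04. A two-sided exact permutation test gave its lowest possible value for 2 groups of 3, p = 0.1. The ratio of the summed reads was 4.27, with a 95% interval of 2.74 to 6.91 from counting error alone. The authors' deposited table also called Stc2, with q = 3.65e-08 and rank 122 by p. Leaving out any 1 library kept the call, at log2 fold changes of 1.82 to 2.17.

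**Figure D1:**
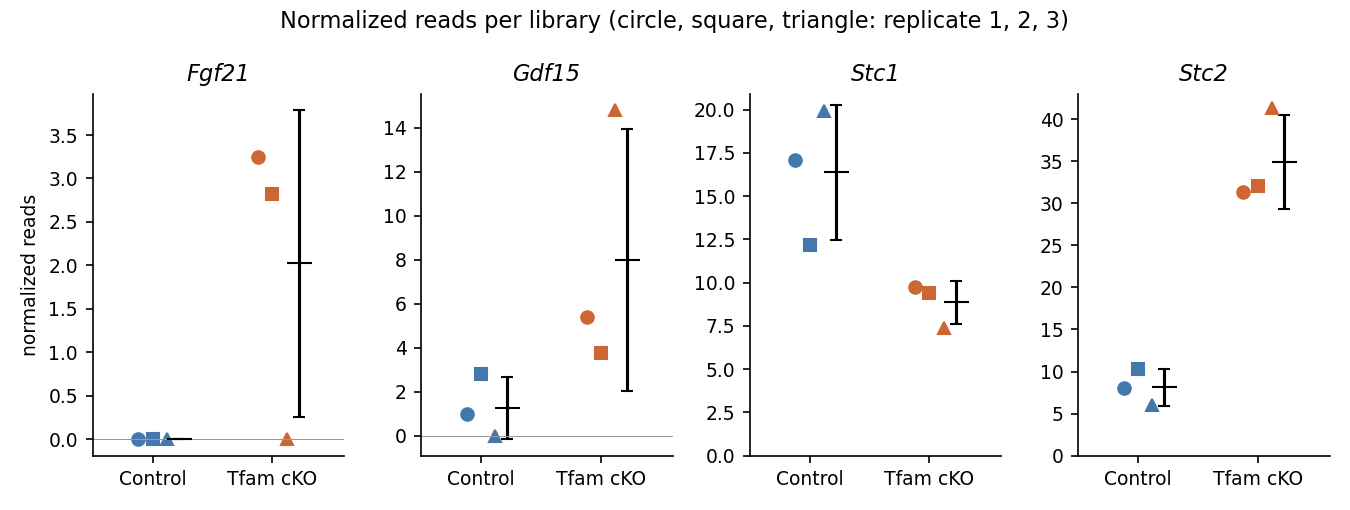
Normalized reads of the 4 secreted factors in each library (vertical axes differ between panels; points are libraries, the bar and whiskers beside them the mean and SD of 3). Stc2 sits at 31.4 to 41.3 in Tfam cKO against 5.97 to 10.3 in Control, Stc1 lies lower in Tfam cKO, and Fgf21 and Gdf15 rest on few reads.

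Stc1 lies on chromosome 14 at 69029289 to 69041401, plus strand, with 4 exon blocks of 3743 bases in all. It had 17.1, 12.2 and 19.9 normalized reads in the control replicates and 9.74, 9.41 and 7.41 in the Tfam cKO replicates. The groups did not overlap, as for 15.4% of all tested genes with the knockout lower and 16.6% with it higher (32.1% in all), but the knockout values were close to that of Control replicate 2. The means were 16.4 ± 3.90 and 8.85 ± 1.26 (SD, n = 3 each), a log2 fold change of -0.80 ± 0.32 (SE; 95% interval -1.49 to -0.11). It did not pass (limma adjusted p = 0.123; exact permutation p = 0.1), and the authors' deposited table did not call it (q = 0.233). Its p before adjustment was 0.0261.

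The 2 stanniocalcins were at like levels in controls, and Stc2 was the more abundant in every knockout library. Levels of different genes can be compared per exon length, as reads per kilobase of exon, scaled to library size (RPKM), computed from the recovered reads. In controls the RPKM of Stc1 was 2.80 ± 0.74 and that of Stc2 2.86 ± 0.70 (SD, n = 3), and their order differed between libraries. In Tfam cKO the RPKM of Stc1 was 1.52 ± 0.23 and that of Stc2 12.5 ± 1.89. The ratio of Stc2 to Stc1 per length was 0.98, 1.77 and 0.63 in the control libraries. It was 6.73, 7.10 and 11.6 in the Tfam cKO libraries, so the groups stood far apart. The mean ratio was thus 7.54 times that of controls (8.49 ± 2.73 against 1.13 ± 0.58; exact two-sided permutation test on log2 ratios p = 0.1, the smallest possible). The summed RPKM of the pair was 5.680, 5.603 and 5.686 in the control libraries and 12.9, 13.2 and 15.9 in the Tfam cKO libraries. By RPKM, 24.7% of tested genes lay below Stc2 in controls and 60.0% in Tfam cKO, while for Stc1 the shares were 24.4% and 16.6%.

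**Figure D2:**
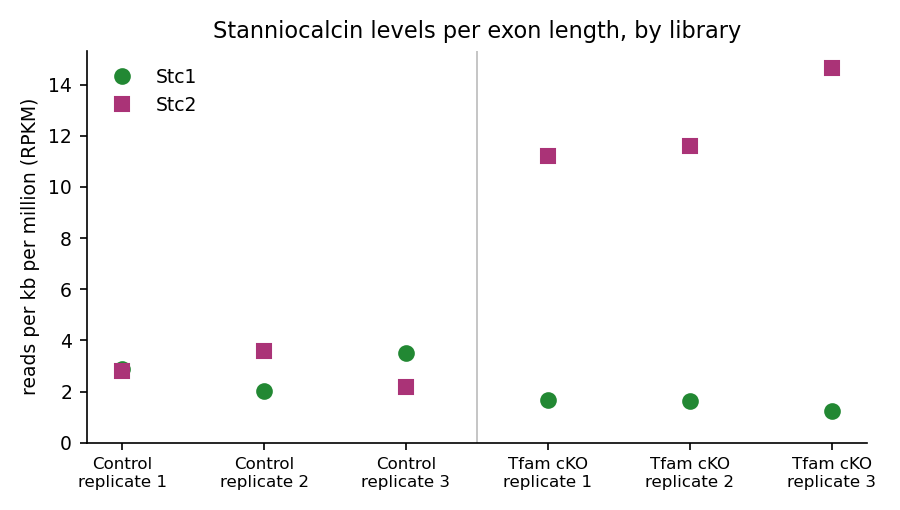
RPKM of Stc1 (circles) and Stc2 (squares) in each of the 6 libraries, controls left of the line. The 2 genes lie between 2.03 and 3.58 in controls, and in Tfam cKO Stc2 lies at 11.2 to 14.7 and Stc1 at 1.26 to 1.67.

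Gdf15 lies on chromosome 8 at 70629394 to 70631635, minus strand, in the deposited table, with 2 exon blocks of 1084 bases. The RefSeq starts shown above lie 460 and 821 bases upstream of that gene model's end, and the sequence between is outside the deposited exon blocks. The control replicates had 1, 3 and 0 reads (1.004, 2.81 and 0 normalized), and the Tfam cKO replicates 5, 4 and 14 (5.41, 3.77 and 14.8 normalized). The groups did not overlap, with the knockout higher, as for 16.6% of all tested genes. Tfam cKO replicate 3 was far above the other libraries, and the nearest values of the groups were 1 read apart. The means were 1.27 ± 1.42 and 7.996 ± 5.96 (SD, n = 3 each), with a log2 fold change of 1.99 ± 0.62 (SE; 95% interval 0.65 to 3.34). It narrowly missed the threshold (limma adjusted p = 0.0536; exact permutation p = 0.1), whereas the authors' deposited table called it (q = 0.0400). The ratio of summed reads, 23 against 4, was 6.02, with a 95% counting interval of 2.06 to 23.9. Without Control replicate 2 or Tfam cKO replicate 2 the adjusted p was 0.0367 and 0.0471, and without Tfam cKO replicate 3 it was 0.205, at a log2 fold change of 1.49.

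Fgf21 lies on chromosome 7 at 45613890 to 45615490, minus strand, with 3 exon blocks of 947 bases. It had 0 reads in all 3 control libraries and 3, 3 and 0 reads in Tfam cKO replicates 1 to 3. The knockout library without a read, Tfam cKO replicate 3, was the one with the most Gdf15 and Stc2, for Stc2 by 39 reads against 29 and 34. No fold is given for so few reads, and Fgf21 did not pass (limma adjusted p = 0.239; exact permutation p = 0.4; q = 0.278 in the authors' deposited table). In a control library a chosen floor of 3 reads of this short gene corresponds to an RPKM of 1.85 to 2.07. The reads in Tfam cKO replicates 1 and 2 were at that floor, and lower levels can leave no read at this depth. Markers of the liver, a main source of circulating FGF21, were at or near 0 in these libraries. The 5 liver marker genes summed to 0 to 1.99 normalized reads in controls and 0 to 1.06 in Tfam cKO, with Alb and Ttr at 0 throughout. Which cells gave the Fgf21 reads was not tested.

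Markers of several cell types differed between the groups, not all in 1 direction within a type. Their calls stand beside 6.42% of all tested genes called higher and 6.01% called lower. In whole bone fewer cells of a type and less RNA per cell cannot be told apart. The summed level of 10 cartilage markers was 508 to 691 normalized reads in controls and 1271 to 2643 in Tfam cKO, and 6 of them rose. That sum was highest in Tfam cKO replicate 1 and lowest of the knockout libraries in replicate 3. Its largest single part in the knockout was Col10a1, which went from a mean of 70.4 to 926. Col2a1 and Acan did not pass (limma adjusted p = 0.555 and 0.0572). The 10 macrophage and osteoclast markers summed to 13272 to 14733 in controls and 16216 to 20552 in Tfam cKO, with 4 higher and 1 lower. Their highest sum was in Tfam cKO replicate 3. Mmp9, among the 4, went from a mean of 3838 to 6319, while the abundant Acp5 and Ctsk did not pass (limma adjusted p = 0.681 and 0.297). The 10 osteoblast markers, with type I collagen the bulk of the sum, summed to 153755 to 189430 in controls and 88804 to 102033 in Tfam cKO. The 3 higher were Alpl, Ibsp and Spp1, and the 4 lower were Col1a1, Col1a2, Bglap and Bglap2. Of the B lineage markers 8 of 8 fell (615 to 870 against 114 to 210). Skeletal muscle markers varied between libraries of 1 group, from 1387 to 8593 in controls and 1319 to 11780 in Tfam cKO, with 0 of 10 called. The part of these cell types in the levels of the 4 factors was not tested.

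The dedicated receptors of FGF21 and GDF15 were at or near 0 in this bone. Gfral, the GDF15 receptor, had 0 reads in every library, as did Kl, the co-receptor of the phosphate hormone FGF23, and Klb, which encodes beta-Klotho, had a value of 0.99 in Control replicate 3 and 0 elsewhere. Ret, the signalling partner of GFRAL that also serves other ligands, was at 13.8 ± 3.96 normalized reads in controls and 8.74 ± 4.10 in Tfam cKO (limma adjusted p = 0.308). Of the FGF receptors, Fgfr1 rose from 449 ± 35.5 normalized reads to 591 ± 60.2 (a log2 fold change of 0.39, limma adjusted p = 0.0311), and Fgfr3, which restrains growth plate chondrocytes, rose by a log2 fold change of 0.52 (adjusted p = 0.0349). Fgfr2 did not pass (-0.23, adjusted p = 0.246). The 5 tested genes of the receptor list had a median log2 fold change of 0.05, beside 0.01 over all tested genes. Of them 2 were higher and 0 lower, beside 6.42% and 6.01% of all tested genes. The 2 became 0 when control library 1 or 2 or knockout library 1 or 3 was left out or with the replicate block, and 1 when control library 3 was left out. Fgf23, the endocrine FGF made by bone itself, had normalized reads of 1.004, 2.81 and 1.99 in the control replicates against 5.41, 5.65 and 5.29 in the knockout, a difference that did not pass (adjusted p = 0.115), and Fgf15 had no read.

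The partners of the stanniocalcins in the insulin-like growth factor axis were detected at widely differing levels. Pappa, which encodes a pappalysin that STC1 and STC2 inhibit, was at 75.3, 61.8 and 47.7 normalized reads in the control libraries and at 106, 111 and 111 in the knockout. It rose in every knockout library over every control, as for 16.6% of all tested genes (log2 fold change 0.84 ± 0.17 SE, limma adjusted p = 0.00585). Among its substrates, Igfbp5, an abundant binding protein of bone, fell from 2081 ± 398 to 792 ± 188 (-1.40 ± 0.17, adjusted p = 2.84e-04), while Igfbp4 was at 674 ± 44.3 against 646 ± 38.4 (-0.06, adjusted p = 0.735; 95% interval -0.27 to 0.15). Igf2r, the receptor that clears IGF2, rose (0.79, adjusted p = 0.00154). The related protease gene Pappa2 was at 0, 5.62 and 4.97 normalized reads in the control libraries and 13.0, 11.3 and 4.23 in Tfam cKO and did not pass (adjusted p = 0.178), nor did Igf1 (-0.58, adjusted p = 0.133; 0.00153 without Tfam cKO replicate 1). Of 11 genes, 2 were higher and 1 lower (2 lower without Tfam cKO replicate 1), beside 6.42% and 6.01% of all tested genes. The median log2 fold change of the 11 was -0.0046.

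Among 24 stress and transcription regulators tested, 9 passed as higher and 1 as lower, beside 6.42% and 6.01% of all tested genes. The list holds known inducers of these factors and also genes that dampen such signalling. Its median log2 fold change was 0.47. The stress kinase genes Eif2ak1, Eif2ak2, Eif2ak3 and Eif2ak4, picked with their values known, did not pass (-0.37, -0.12, -0.46 and -0.32, limma adjusted p = 0.0873, 0.683, 0.0621 and 0.240). Atf5, a bZIP factor of mitochondrial stress, rose from 69.1 ± 2.98 to 412 ± 14.7 normalized reads (2.56, limma adjusted p = 9.17e-08), and Trib3, a pseudokinase that dampens ATF4 signalling, rose from 4.89 ± 0.18 to 167 ± 38.8 (4.81, adjusted p = 1.82e-07). Atf3 (2.01, adjusted p = 0.00227), Ddit3, which encodes CHOP (1.46, adjusted p = 0.00266), Hif1a (1.02, adjusted p = 2.84e-04) and Atf4 (0.57, adjusted p = 0.00438) rose as well. Trp53, whose protein also induces Gdf15, was at 128 ± 4.95 against 131 ± 4.83 (0.04, adjusted p = 0.872), and its target Cdkn1a rose from 143 ± 22.6 to 382 ± 15.8 (1.42, adjusted p = 2.87e-05). The 1 lower gene, Ppp1r15b, a phosphatase subunit that opposes the stress kinases, picked with its values known (-0.40, adjusted p = 0.0253), lost its call when library 1 or 3 of either group was left out, and without knockout library 2 the number of lower genes was 2. Atf5 and Ddit3 share 64 and 68 exon bases with Nup62 and Mars on the other strand, and the sources do not say whether counting used strand.

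Of 14 other secreted factors of stress tested, 3 were higher and 0 lower, beside 6.42% and 6.01% of all tested genes. The median log2 fold change of the 14 was 0.47. Angptl4, an inhibitor of lipoprotein lipase, was at 85.4, 99.3 and 82.6 normalized reads in the control libraries and 169, 190 and 184 in the knockout (log2 fold change 1.02, limma adjusted p = 3.17e-04). Adm2, a peptide of the calcitonin family and a known ATF4 target, had 0, 0 and 0.99 in controls and 10.8, 1.88 and 7.41 in Tfam cKO (adjusted p = 0.0259). Vegfa, the angiogenic factor, rose by 0.50 (adjusted p = 0.0443; 0.0534 after quantile normalization, 0.0537 with pseudocount 0.1 and 0.0738 with DESeq2), and Lcn2, a neutrophil granule protein, did not pass (-0.45, adjusted p = 0.0563) beside neutrophil markers that summed to 9001 to 11481 in controls and 6148 to 9488 in Tfam cKO. Of the 8 neutrophil markers 3 were called lower and 0 higher, beside 6.01% and 6.42% of all tested genes. The part of neutrophils in the Lcn2 value was not tested. The 3 higher became 1 when control library 1 or 2 or knockout library 1 or 3 was left out or with DESeq2, with Angptl4 kept throughout, and 1 lower gene, Lcn2, passed without Tfam cKO replicate 2, with the replicate block, after quantile normalization, in the robust fit and with the exon length trend removed (adjusted p from 0.0159 to 0.0396). The endoplasmic reticulum stress factors Manf (0.01, adjusted p = 0.952) and Creld2 (0.03, adjusted p = 0.936), picked with their values known, did not pass.

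The 14 tested genes that FGF signalling is known to induce had a median log2 fold change of 0.43. Of them 4 were higher and 0 lower, beside 6.42% and 6.01% of all tested genes. The 4 were the feedback inhibitors Spry4 (log2 fold change 1.38, limma adjusted p = 0.00310) and Spry1 (0.81, adjusted p = 0.0365) and the transcription factors Etv4 (1.83, adjusted p = 0.0191) and Egr1 (0.82, adjusted p = 0.0286). The targets Dusp6 (0.19, adjusted p = 0.431) and Etv5 (-0.02, adjusted p = 0.974), picked with their values known, did not pass. Spry4 kept its call under all alternatives. Leaving out 1 library ended the call of Etv4 (control 1 or 3, knockout 1 or 3; adjusted p up to 0.0787), Egr1 (any control, or knockout 3; up to 0.120) and Spry1 (any but control 1; up to 0.123), and that of Egr1 also ended with the replicate block (0.0581) or the robust fit (0.0700). With knockout library 3 left out, Spry4 was the 1 gene of this list that passed. Of 14 processing proteases and TGF-beta superfamily relatives of Gdf15, 5 were higher and 1 lower, beside 6.42% and 6.01% of all tested genes. The median log2 fold change of these 14 was 0.38. Inhba, the activin A subunit, rose from 4.55 ± 2.22 to 42.6 ± 11.8 normalized reads (3.04, adjusted p = 3.76e-04), with Tgfb2 (1.79, adjusted p = 0.00373), Bmp7 (1.57, adjusted p = 0.0134) and Mmp14, a membrane protease (0.58, adjusted p = 0.00921, but 0.0577 after quantile normalization). The 5 became 2 when control library 1 or 3 was left out. The 1 lower gene, the protease gene Pcsk5, picked with its values known (-0.66, adjusted p = 0.0316), lost its call when any library but control 1 was left out, with the replicate block or with DESeq2.

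**Figure D3:**
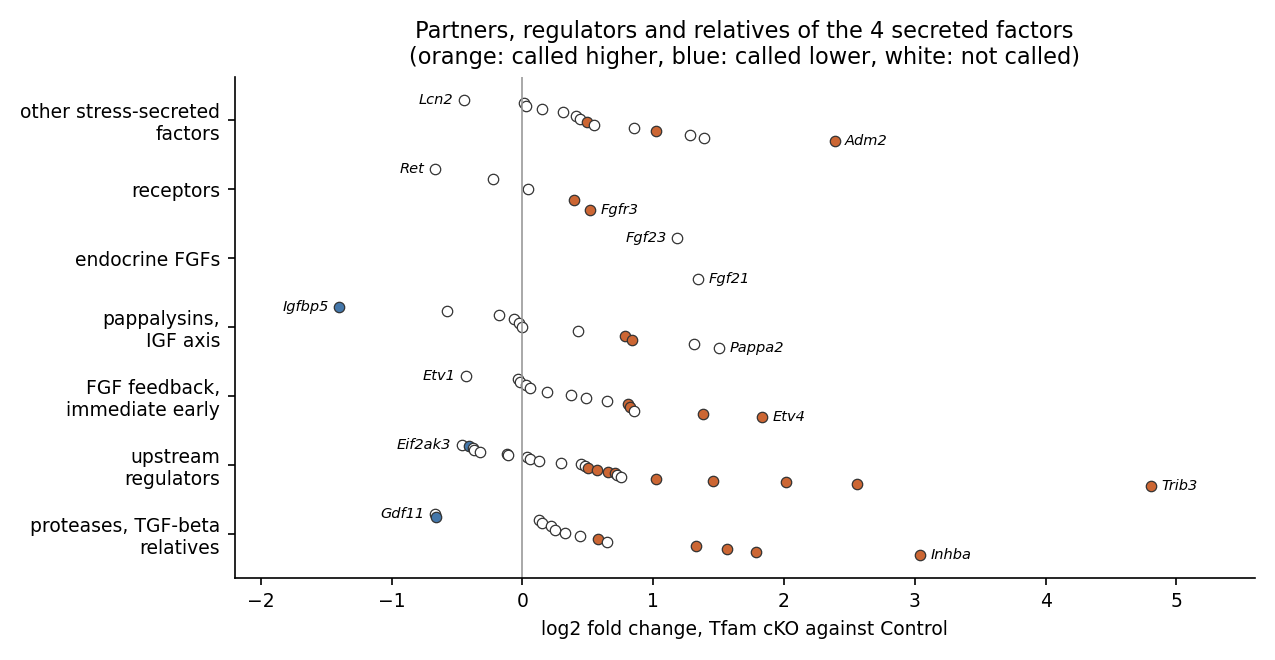
Log2 fold change of each tested gene of 7 lists of partners, regulators and relatives (horizontal axis; 1 point per gene, colour for the limma call, names at the ends of each list). In the list labelled upstream regulators the highest value is 4.81 (Trib3, a gene that dampens ATF4 signalling). The IGF axis runs from -1.40 (Igfbp5) to 1.503 (Pappa2, not called).

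The genes with the profile closest to each stanniocalcin were found among 11883 genes with a mean of at least 5 normalized reads, by the root mean square difference over the 6 libraries of log2 values centred on the control mean. For Stc2 they were Cyb5r1, a reductase (0.10), Ptx3, a secreted pentraxin (0.14), and Emp2, a membrane protein (0.16). Their means went from 49.1 ± 11.6 to 194 ± 24.9, from 33.0 ± 8.72 to 136 ± 30.6 and from 41.3 ± 5.51 to 171 ± 3.44 normalized reads. For Stc1 they were the DNA repair gene Xrcc2 (0.08), the helicase gene Dna2 (0.10) and Mbp, which encodes a myelin protein (0.11), with log2 fold changes of -0.73, -0.75 and -0.69. Gdf15 and Fgf21, with mean values under 5, were not compared in this way. Because values were centred on the control mean, the measure rests largely on the group difference. A like fold change therefore follows from the selection, and shared regulation was not tested.

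**Figure D4:**
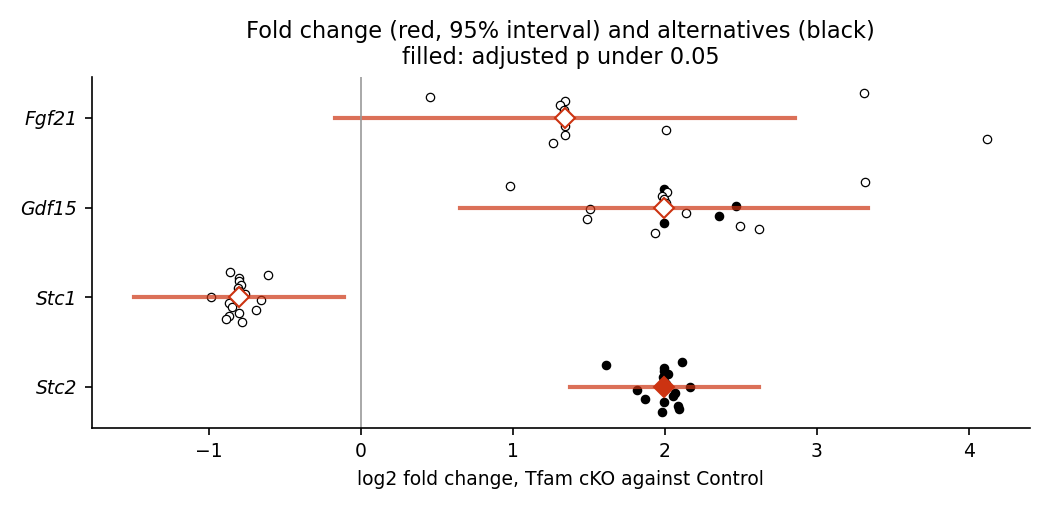
Log2 fold change of each of the 4 factors (red diamond with its 95% interval) and under each alternative setting (black), filled where the adjusted p was under 0.05. Stc2 is filled at every point, between 1.61 and 2.17, Stc1 at none, and Gdf15 at 4 of 16.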

How the data were processed

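Directional poly(A) libraries from the bone were sequenced on an Illumina MiSeq, per the labels' protocols and the series' design text. TopHat, Cufflinks and mm10 are named, with no role, per the submitters' processing notes. No source says which program counted reads, whether it used strand or how the authors tested. Per the file headers, 1 deposited table holds a normalized signal per gene and library, group means, p-values and q-values by the authors. In each library 100% of the values were whole multiples of 1 step (tolerance 0.001 reads), so whole read counts were recovered from the deposited signal. In Control replicates 1 and 3 the step is so close to 1 that this test is weak. The authors' fold changes were not used.

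The main test was limma 3.58.1 (R 4.3.3), with a mean-variance trend, on log2(normalized read count + 1) of genes with a mean of at least 1 (14438 of 23420), with a single genotype term over the 6 libraries and Benjamini-Hochberg adjustment at 0.05. Such fold changes understate those of genes with few reads. RPKM values, exact permutation tests over the 20 arrangements (scipy 1.17.1) and exact binomial counting intervals were computed from the recovered reads or normalized values. Such intervals and floors reflect counting error alone, because reads copied by PCR are not separate molecules.

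The members and gene lists were chosen with earlier results of these data known. The genes named are the 4 members, Tfam, the 4 with the smallest p of each pathway list, a set of receptors, partners and regulators, and the 3 genes closest in profile to each member with a mean of at least 5. Replicate pairs differed by more than sampling noise. Scripts were tested on simulated data. Alternatives were other pseudocounts, filters and scalings, a replicate block, leaving out each library, a robust fit, edgeR 4.0.16 and DESeq2 1.42.0 on the recovered reads and, added after seeing the data, removal of each library's trend with exon length.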

Additional observations from a re-analysis of the deposited data

How the results depend on the processing

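Stc2 kept its direction and its call under all 17 alternatives, at log2 fold changes of 1.61 to 2.17 and adjusted p of 8.66e-05 to 0.00849. Stc1 stayed negative and uncalled under all 17, at -0.99 to -0.61. Gdf15 was positive under all 16 that tested it and passed under 4. They were no filter on low values (1.99, adjusted p = 0.0480), the robust fit (1.99, adjusted p = 0.0284) and the omission of Control replicate 2 or Tfam cKO replicate 2, with 1.49 to 2.47 over the 6 libraries left out in turn. Its adjusted p over all 16 ran from 0.0284 to 0.205, and its fold change from 0.98 (pseudocount 5) to 3.32 (pseudocount 0.1). Fgf21 passed under none of 13, at 0.46 to 4.12. It fell below the filter at a mean of at least 5 and without Tfam cKO replicate 1 or 2, and DESeq2 gave it no adjusted p. Gdf15 was not tested at a mean of at least 5. The count of 1795 called genes ran from 891 to 1807 with 1 library left out (891 without Control replicate 1, 1103 without Control replicate 3, 1166 without Tfam cKO replicate 1, 1090 without Tfam cKO replicate 3) and was 1140 with DESeq2. With the replicate block it was 1290, and it changed no call among the 4 factors (Gdf15 adjusted p = 0.111). Deviations of same-numbered libraries correlated at -0.43, 0.01 and 0.14, and not every library correlated best with its own number. These values do not show a pairing by number, but with so few libraries they cannot exclude one. Of the 38 other named genes that were tested, 0 of 644 values reversed, 61 lost a call and 6 gained one. Apart from omitted libraries, calls ended with quantile normalization for Fgfr1, Vegfa and Mmp14 (adjusted p = 0.0845, 0.0534 and 0.0577), with pseudocount 0.1 for Vegfa (0.0537), with the robust fit for Egr1 (0.0700), with the block for Fgfr1, Fgfr3, Egr1 and Mbp (0.0540, 0.0632, 0.0581 and 0.0530) and with DESeq2 for Tfam, Adm2, Vegfa, Fgfr3, Spry1 and Mbp (0.0564, 0.0568, 0.0738, 0.119, 0.0771 and 0.0700). Depth limits Fgf21 and Gdf15 most, with 6 and 27 reads in all.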
